A study of Mus musculus with 55 samples.

Results

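The blood-brain barrier and endothelial genes described here are 10 genes taken by name: Cldn5, Ocln, Tjp1, Pecam1, Cdh5, Flt1, Tek, Slc2a1, Abcb1a and Mfsd2a. All have known roles in the vessel wall, and the rule that names them uses no measured value. The genes were nonetheless chosen with earlier results of these data known. Which cells of the tissue their RNA came from was not tested. All 10 passed the filter on low counts, among 18283 genes tested of 45318 genes listed. The measure was bulk RNA of punched tissue from the ventral dentate gyrus, the granule cell field of the ventral hippocampus, in 54 single adult male C57BL/6J mice. The mice lived in standard housing (SH) or enriched housing (EE). Some were left unstressed (control) and the others underwent chronic social defeat stress (CSDS), repeated attacks by a CD1 aggressor mouse, and were then sorted by a social interaction test as resilient (RES) or susceptible (SUS). The groups held 10 SH control, 7 SH RES, 10 SH SUS, 9 EE control, 9 EE RES and 9 EE SUS mice. RES and SUS are behavioral classes among defeated mice, so these mice went through the same defeat procedure. A punch takes vessels along with neurons, glia and some neighboring tissue, and fewer endothelial cells cannot be told apart from less RNA per endothelial cell.

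Endothelial cells of brain capillaries seal the vessel wall with tight junctions, keep transfer across the cell low and move nutrients and drugs through dedicated transporters. Claudins and occludin span the membrane at tight junctions, and the scaffold protein encoded by Tjp1 ties them to actin. Signals from pericytes, astrocyte endfeet and Wnt ligands maintain this state. Loss of Cldn5 has been tied to susceptibility to social defeat in other brain regions, which is the question these genes address here.

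Promoters are shown for 3 members: Cldn5, the junction gene of that question, Flt1, the gene that differed between housings, and Ocln, the junction gene that varied apart from the endothelial genes. RefSeq entries (GRCm38.p6) were matched for 8 of the 10 members, and Cdh5 and Pecam1 were not matched. Each sequence is the 250 bases before the start of transcription, 5′ to 3′ on the gene's own strand, and capitals mark GGAA or its reverse complement TTCC, the core letters bound by ETS factors, a family with endothelial members such as ERG. They lie at chr16:18776597-18776846 (plus strand), chr5:147726012-147726261 (minus strand) and chr13:100552719-100552968 (minus strand).
Cldn5: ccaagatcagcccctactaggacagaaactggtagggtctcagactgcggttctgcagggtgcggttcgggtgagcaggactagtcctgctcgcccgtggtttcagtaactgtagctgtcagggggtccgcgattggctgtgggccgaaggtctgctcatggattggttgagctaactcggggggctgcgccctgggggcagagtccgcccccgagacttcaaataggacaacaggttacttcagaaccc
Flt1: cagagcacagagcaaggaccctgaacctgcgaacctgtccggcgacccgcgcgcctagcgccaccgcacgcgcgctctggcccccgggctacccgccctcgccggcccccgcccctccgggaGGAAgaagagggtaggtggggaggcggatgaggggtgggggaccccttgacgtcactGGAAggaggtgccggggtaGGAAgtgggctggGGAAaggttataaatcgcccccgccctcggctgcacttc
Ocln: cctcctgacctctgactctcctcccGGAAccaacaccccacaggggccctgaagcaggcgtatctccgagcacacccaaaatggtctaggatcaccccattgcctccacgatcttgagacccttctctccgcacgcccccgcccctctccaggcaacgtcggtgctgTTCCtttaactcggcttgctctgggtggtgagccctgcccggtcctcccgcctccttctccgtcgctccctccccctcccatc
The Cldn5 window held no such match, the Flt1 window 4 and the Ocln window 2. RefSeq holds a second Ocln window, at chr13:100552499-100552748 (not shown), with 1 match. These letters are common, since 93.5% of 32851 promoter windows of this length held at least 1 match and 33.4% held as many as Flt1 or more. The letters ACAAAG or CTTTGT, a core of SOX and TCF/LEF factors, were in none of these 3 windows and in 16.5% of all windows.

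Of the 55 libraries, 2 came from 1 EE control mouse and were summed. The labels do not say whether its second was a new sequencing run or a new preparation. The 55 libraries held 32223034 to 49990637 read pairs each, with a median of 44765652, and 16760009 to 24426804 pairs were counted to genes on the reverse strand. The share of forward-strand counts was between 3.51% and 4.13%. Member counts per mouse ran from 80 for Cdh5 to at least 2423 for Tjp1, so Cdh5 carried the most counting error. Levels of the choroid plexus list, which marks tissue from the ventricle, were highest in SH control 3, with a mean log2 CPM of 4.57. The 6 highest mice were SH control 3, EE SUS 3, SH SUS 3, EE control 9, EE RES 3 and SH SUS 7. No clear gap set them apart, since SH SUS 7 stood at 2.53 and EE RES 8 followed at 1.80. The median of all mice in SH was 0.09 and that in EE 0.25.

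Levels were first set in order by CPM (counts scaled to the library size after TMM normalization) per kilobase of exon, the scale on which genes of unequal length can be compared. Tjp1 was highest at 18.8 ± 0.901 CPM per kb (mean ± SD, n = 54), followed by Cldn5 at 17.2 ± 2.39, and Tjp1 lay above Cldn5 in 41 of 54 mice. Slc2a1 came next at 13.8 ± 1.67 CPM per kb and Mfsd2a at 8.97 ± 1.16. Ocln at 6.19 ± 0.757 and Abcb1a at 5.74 ± 0.663 CPM per kb overlapped in range, and Ocln lay above Abcb1a in 38 of 54 mice. Tek stood at 3.55 ± 0.412 CPM per kb. The neighbors Pecam1 at 2.89 ± 0.386 and Flt1 at 2.79 ± 0.487 overlapped in range, and Pecam1 lay above Flt1 in 38 of 54 mice. Cdh5 was lowest at 1.35 ± 0.21 CPM per kb. The order rests on the union of annotated exons, which for Flt1 is 13504 bases long and lowers its level per kb.

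**Figure D1:**
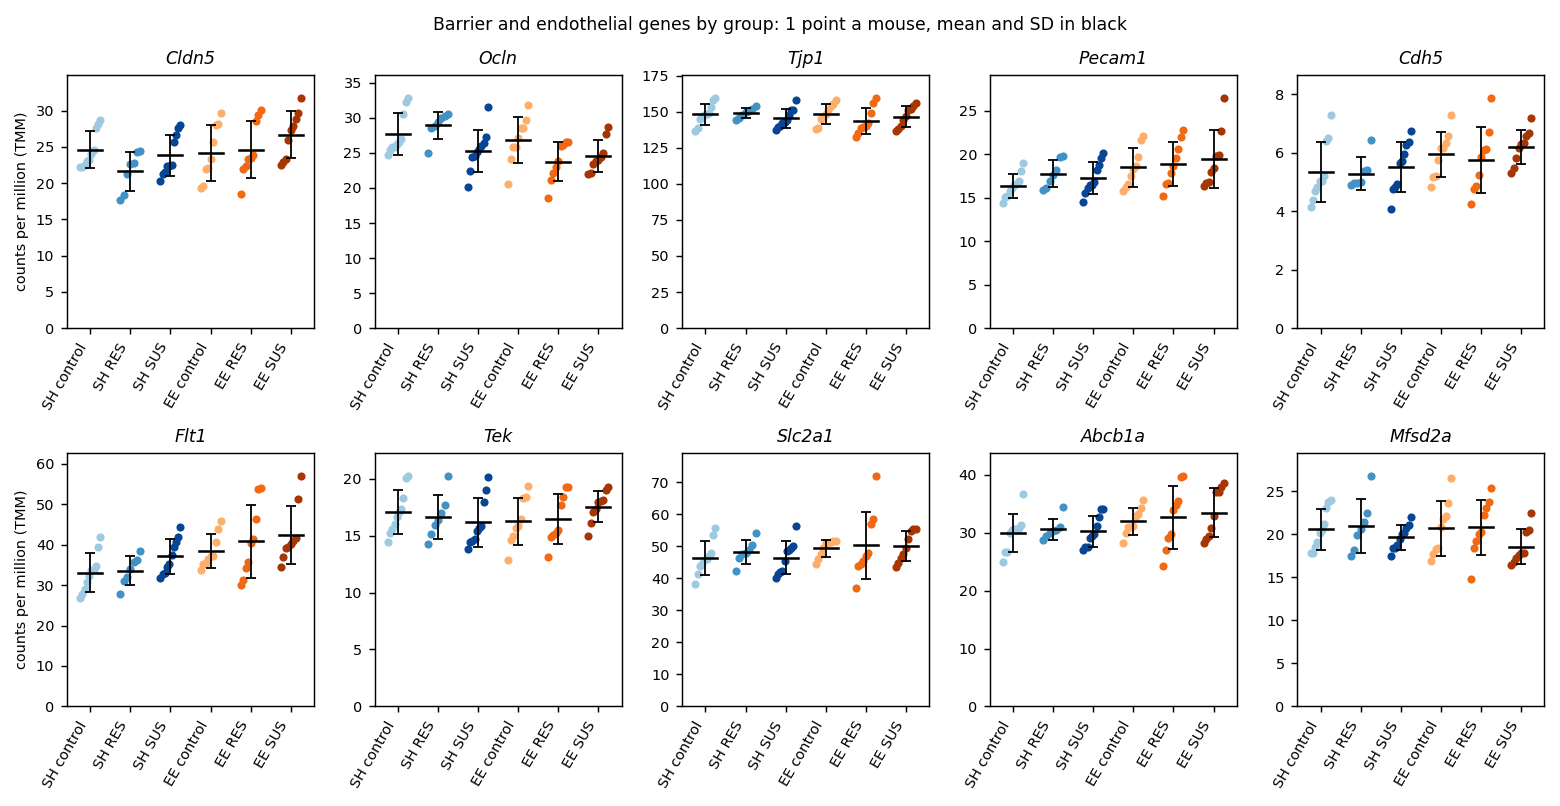
Level of each of the 10 genes in CPM (vertical axes, from 0) in the 6 groups (horizontal axes), with 1 point per mouse and the mean and SD in black. The groups overlap for every gene, and the EE mice of Flt1 reach 57.1 CPM against 44.3 CPM in SH mice.

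Cldn5 encodes claudin-5, the main sealing protein of the endothelial tight junction (ENSMUSG00000041378, chromosome 16, 18776847-18778262, GRCm38). Its CPM in SH control mice was 22.2 at the lowest, 23.6 at the median and 28.7 at the highest. In SH RES mice the lowest, median and highest CPM were 17.7, 22.6 and 24.4, and in SH SUS mice 20.3, 22.4 and 28.0. These 3 ranges overlapped, although 3 of 7 SH RES mice and 3 of 10 SH SUS mice lay below every SH control mouse. Of the unstressed EE control mice, 4 of 9 also lay below every SH control mouse. In EE the lowest, median and highest CPM were 19.3, 23.3 and 29.7 in control mice, and 18.6, 23.4 and 30.2 in RES mice. EE SUS mice ran from 22.5 to 31.8 CPM with a median of 27.4. The EE groups overlapped too, with 2 of 9 EE SUS mice above every EE control mouse.

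The comparison that the question turns on, SUS against control mice in SH, gave a log2 fold change of -0.05 ± 0.08 (SE) for Cldn5, a change of -3.35% with a 95% interval from -13.8% to 8.33%. Its adjusted p was 1 under the quasi-likelihood test of edgeR, limma and DESeq2. With the other endothelial markers or the red cell level as a covariate this value was -0.17 or -0.13, and without the 6 mice highest in choroid plexus -0.0033, with an adjusted p of 0.999 or more in these 3 fits. With 1 mouse left out it ran from -0.08 to -0.02. In SH RES mice Cldn5 differed from control by -0.19 (95% interval -0.37 to 0.00) at an unadjusted p of 0.0453, which did not pass adjustment. In EE the SUS-minus-control value was 0.14 (-0.03 to 0.32) and the RES-minus-control value 0.03 (-0.15 to 0.20). Against RES mice, Cldn5 in SUS mice was 0.14 higher in SH (-0.05 to 0.32) and 0.12 in EE (-0.05 to 0.29). Over both housings SUS minus RES was 0.13 (0.00 to 0.25), with unadjusted p 0.0463 and adjusted p 0.999. The point estimates of Cldn5 were thus above 0 for SUS minus RES and below 0 for SUS minus control in SH, and none passed.

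Ocln encodes occludin, which shapes the tight junction strands of epithelia and endothelia (ENSMUSG00000021638, chromosome 13, 100496507-100552718). The lowest, median and highest CPM were 24.7, 26.4 and 32.9 in SH control mice, 24.99, 29.4 and 30.6 in SH RES mice and 20.1, 25.3 and 31.5 in SH SUS mice. In EE they were 20.6, 27.2 and 31.8 in control mice, 18.6, 23.9 and 26.6 in RES mice and 22.0, 23.9 and 28.7 in SUS mice. The groups overlapped, and 1 SH RES mouse lay apart below the other 6. In SH, SUS mice differed from RES mice by -0.19 (-0.34 to -0.04) with unadjusted p 0.0117 and adjusted p 0.934. In EE, RES mice differed from control by -0.18 (-0.32 to -0.03) with unadjusted p 0.0169 and adjusted p 0.588. Between RES mice of the 2 housings, EE minus SH was -0.28 (-0.44 to -0.13) with an adjusted p of 0.0627. The difference between housings of SUS minus RES was 0.24 (0.03 to 0.45) with adjusted p 0.977.

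Tjp1, the scaffold gene of the junction (ENSMUSG00000030516, chromosome 7, 65296165-65527781), varied least. Its group medians ran from 139.9 CPM in EE RES mice to 150.1 CPM in SH RES mice, and single mice from 132.3 to 159.9 CPM. Its coefficient of variation over all mice was 4.79%, against 11.6% to 17.5% for the other 9 genes. The interval of defeated minus unstressed mice was the narrowest of the 10, at -0.06 to 0.02 on the log2 scale.

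Pecam1 encodes an adhesion molecule of the endothelial surface and leukocytes (ENSMUSG00000020717, chromosome 11, 106654217-106750628). Its median was 16.3 CPM in SH control mice (14.4 to 19.0), 17.6 CPM in SH RES mice (15.9 to 19.8) and 16.6 CPM in SH SUS mice (14.5 to 20.2). In EE the medians were 18.3 CPM (15.8 to 22.1) in control, 18.6 CPM (15.2 to 22.8) in RES and 18.4 CPM (16.3 to 26.5) in SUS mice. All EE medians lay above all SH medians, while the ranges overlapped. Cdh5, the gene of VE-cadherin at endothelial adherens junctions (ENSMUSG00000031871, chromosome 8, 104101625-104144511), had medians of 4.99 to 5.69 CPM in the SH groups and 5.86 to 6.30 CPM in the EE groups. Single mice ran from 4.08 to 7.30 CPM in SH and from 4.25 to 7.89 CPM in EE.

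Flt1 encodes VEGF receptor 1, which binds VEGF and limits its signal through the main receptor Kdr (ENSMUSG00000029648, chromosome 5, 147561604-147726011). The lowest, median and highest CPM were 26.8, 33.0 and 42.0 in SH control mice, 27.9, 34.0 and 38.4 in SH RES mice and 31.8, 36.3 and 44.3 in SH SUS mice. They were 33.7, 37.1 and 45.9 in EE control mice, 30.1, 40.4 and 54.1 in EE RES mice and 34.5, 40.1 and 57.1 in EE SUS mice. Each EE median lay above each SH median, 6 of 27 EE mice lay above every SH mouse, and no EE mouse lay below the SH range. Tek encodes the angiopoietin receptor Tie2 (ENSMUSG00000006386, chromosome 4, 94739289-94874976). Its group medians ran from 15.5 CPM in SH SUS to 17.9 CPM in EE SUS mice, within a range of single mice from 12.9 to 20.3 CPM.

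Of the transporters, Slc2a1 encodes the glucose carrier GLUT1 (ENSMUSG00000028645, chromosome 4, 119108711-119137983). Its medians ran from 45.9 CPM in SH control to 50.8 CPM in EE control mice, with the widest spread in EE RES mice, from 36.8 to 71.9 CPM. Abcb1a encodes P-glycoprotein, the efflux pump for drugs (ENSMUSG00000040584, chromosome 5, 8660077-8748575), with medians from 29.5 CPM in SH SUS to 33.9 CPM in EE RES mice. Mfsd2a encodes the carrier of lysolipids that keeps vesicle transfer across the endothelium low (ENSMUSG00000028655, chromosome 4, 122946850-122961188). Its lowest median was 17.8 CPM in EE SUS mice (16.5 to 22.5) and its highest 20.9 CPM in EE control mice (16.9 to 26.5). SUS minus RES over both housings gave -0.13 (-0.25 to -0.01) for Mfsd2a, with unadjusted p 0.0369 and adjusted p 0.999.

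**Figure D2:**
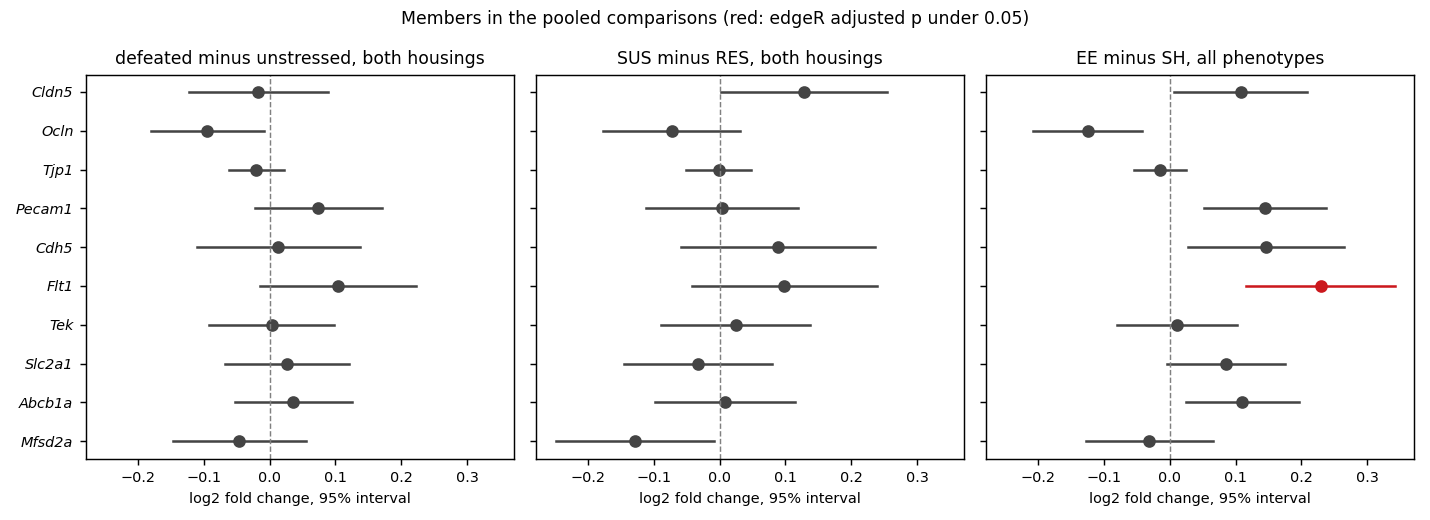
Log2 fold change (horizontal axes) of each gene (vertical axis) with its 95% interval for defeated minus unstressed, SUS minus RES and EE minus SH mice, over all 54 mice, with an adjusted p under 0.05 in red. Only Flt1 in EE minus SH is red, at 0.23.

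No member was called, at an adjusted p below 0.05 over all genes tested, in any comparison of defeated with unstressed mice. Over both housings defeat gave 0 of 10 members by edgeR, limma and DESeq2, with 1 of 10 at an unadjusted p below 0.05, against a background of 0.0438% of all genes called. That gene was Ocln, at -0.09 (-0.18 to -0.01) with adjusted p 0.987. Over 13 alternative fits its value ran from -0.1081 to -0.0155, with an adjusted p of 0.475 or more. Cldn5 stood at -0.02 (-0.12 to 0.09), and at -0.11 or -0.08 with the other endothelial markers or the red cell level as a covariate (adjusted p 0.964 and 0.999). Flt1 stood at 0.10 (-0.01 to 0.22), Pecam1 at 0.07 (-0.02 to 0.17) and Mfsd2a at -0.05 (-0.15 to 0.05). The remaining 5 lay between -0.02 and 0.04. The median over the 10 was 0.01 and that over all genes 0.00. Within housings, SUS minus control gave 0 of 10 in SH (background 0.0328%) and 0 of 10 in EE (background 0%), with 0 at an unadjusted p below 0.05 in both and 0 by limma and DESeq2. RES minus control gave 0 of 10 in SH and 0 of 10 in EE (background 0% in both), with 0 by limma and DESeq2 and 1 at an unadjusted p below 0.05 in each, which were Cldn5 in SH and Ocln in EE.

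Red cell genes moved with defeat, and all 5 of 5 rose. Hbb-bt, Hbb-bs and Alas2, genes of beta globin and of heme synthesis, rose by 1.298 ± 0.184, 1.085 ± 0.156 and 1.130 ± 0.166 on the log2 scale, with edgeR adjusted p values of 4.08e-05, 4.08e-05 and 4.97e-05. The mean log2 CPM of this list was 2.77 to 3.80 in unstressed mice and 2.74 to 5.85 in defeated mice. Its part in the members' values was not tested, apart from a fit with this level as a covariate, in which the defeat comparison still gave 0 of 10 members. None of the 10 members passed for a correlation with the red cell list within groups, where r ran from -0.29 for Ocln to 0.30 for Cdh5.

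No member was called between SUS and RES mice either. SUS minus RES gave 0 of 10 in SH and 0 of 10 in EE by edgeR, limma and DESeq2 (background 0% in both), with 1 and 0 at an unadjusted p below 0.05, the 1 being Ocln in SH. Under the looser criterion of the study, a limma-voom unadjusted p below 0.05 with a fold change above 1.3, there were 0 of 10 members in SH, where 1.14% of all genes passed, and 0 of 10 in EE, where 1.1% passed. Over both housings 0 of 10 were called by the 3 tools (background 0%), and 2 had an unadjusted p below 0.05, Cldn5 higher and Mfsd2a lower in SUS mice. The 10 estimates ran from -0.13 to 0.13, and the 10 intervals together reached from -0.25 to 0.25. The widest SE was 0.07, so a change of the size the study's criterion asks for lay outside all 10 intervals.

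Housing gave the 1 call among the members. Flt1 was 0.23 ± 0.06 (SE) higher on the log2 scale in EE than in SH mice, 17.2% higher with a 95% interval from 8.39% to 26.8%, and its adjusted p was 0.0186 with edgeR, 0.0235 with limma and 0.00616 with DESeq2. Of 27 EE mice 24 lay above the SH median, and of 27 SH mice 4 lay above the EE median. Over all genes 442 were called, 2.42% of those tested, and 17.6% had an unadjusted p below 0.05, against 1 and 6 of the 10 members. Pecam1 at 0.14 (0.05 to 0.24, adjusted p 0.0735) and Ocln at -0.12 (-0.21 to -0.04, adjusted p 0.0891) came next. Cdh5 at 0.15, Abcb1a at 0.11 and Cldn5 at 0.11 had adjusted p values of 0.169, 0.148 and 0.243. Slc2a1 stood at 0.09, Tek at 0.01, Tjp1 at -0.01 and Mfsd2a at -0.03. The median over the 10 members was 0.10 and that over all genes 0.00.

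The Flt1 difference was of like size in each phenotype. It was 0.22 (0.03 to 0.41) between control mice, 0.28 (0.07 to 0.49) between RES mice and 0.19 (0.00 to 0.38) between SUS mice. None of these smaller comparisons passed, with adjusted p values of 0.929, 0.161 and 0.676. They gave 0 of 10 members each, with backgrounds of 0.00547% for control, 0.273% for RES and 0.00547% for SUS mice. Between control mice, 2 of 10 had an unadjusted p below 0.05, Flt1 and Pecam1, and limma and DESeq2 called 0. Between RES mice these were 2, Ocln and Flt1, and between SUS mice 3, Pecam1, Flt1 and Abcb1a, in fits that edgeR alone was run on. The effect of defeat was compared between housings in 1 test and that of SUS against RES in another, and both gave 0 of 10 by the 3 tools (background 0% in both), with 0 and 1 at an unadjusted p below 0.05. For Flt1 the defeat effect in EE exceeded that in SH by 0.02 (-0.22 to 0.26), and for Cldn5 by 0.20 (-0.01 to 0.41), with adjusted p 0.756.

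Markers of other cells moved with housing beside Flt1. Of 6 oligodendrocyte genes 6 were higher in EE and 2 were called, among them Mbp, a gene of the myelin sheath, at 0.25. Of 6 dentate granule cell genes 6 were lower and 2 were called, Tdo2 at -0.28 and Dsp at -0.30. The mean log2 CPM of the oligodendrocyte list had a median of 6.91 in SH (6.54 to 7.83) and 7.23 in EE mice (6.52 to 7.70), and that of the granule cell list 6.42 in SH (5.86 to 6.67) and 6.25 in EE mice (5.65 to 6.72). With the granule cell, oligodendrocyte and thalamus levels as covariates, a fit added after the values were seen, Flt1 stood at 0.20 with adjusted p 0.118 and Ocln at -0.03 with adjusted p 0.698. With the mean of 23 other endothelial markers as a covariate, Flt1 stood at 0.14 with adjusted p 0.0782. That endothelial mean had a median of 2.68 in SH (2.47 to 3.05) and 2.81 in EE mice (2.45 to 3.16).

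Among mice of the same group, 7 of the genes rose and fell together. Log2 CPM was centered on the group mean and correlated over the 54 mice, with p from 100000 permutations within groups, of which 1e-05 is the smallest they can give. Of 45 pairs, 24 passed a Benjamini-Hochberg adjusted p of 0.05, and all 24 were positive. They included all 21 pairs among Cldn5, Pecam1, Cdh5, Flt1, Tek, Slc2a1 and Abcb1a, a set picked after the values were seen, whose r ran from 0.33 to 0.75 with a median of 0.59. The highest was Pecam1 with Abcb1a (r = 0.745, rho = 0.713, permutation p = 1e-05, adjusted p = 5.6e-05). With the 2 mice most distant from the median of Pecam1 left out its r was 0.718. Here and below, the 2 mice left out are the most distant in the first gene of a pair. Against a list they are the most distant in the member. Mice distant only in the other gene or list stayed in. Cldn5 followed Pecam1 with r = 0.709 and rho = 0.673, and r was 0.668 without 2 mice. By Spearman's rho, Cldn5 with Slc2a1 (rho = 0.311, adjusted p = 0.0558) and Tek with Slc2a1 (rho = 0.242, adjusted p = 0.14) did not pass.

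Ocln, Tjp1 and Mfsd2a formed the other 3 pairs that passed, at r = 0.517 for Ocln with Tjp1, 0.514 for Ocln with Mfsd2a and 0.33 for Tjp1 with Mfsd2a. The last missed the threshold by rho (0.297, adjusted p = 0.0726). None of the 3 passed with any of the other 7 genes by r, and by rho Tjp1 with Flt1 did (0.374, adjusted p = 0.0238). Cldn5 with Ocln, both tight junction genes, gave r = -0.129 and rho = -0.141 (permutation p = 0.392 and 0.336).

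**Figure D3:**
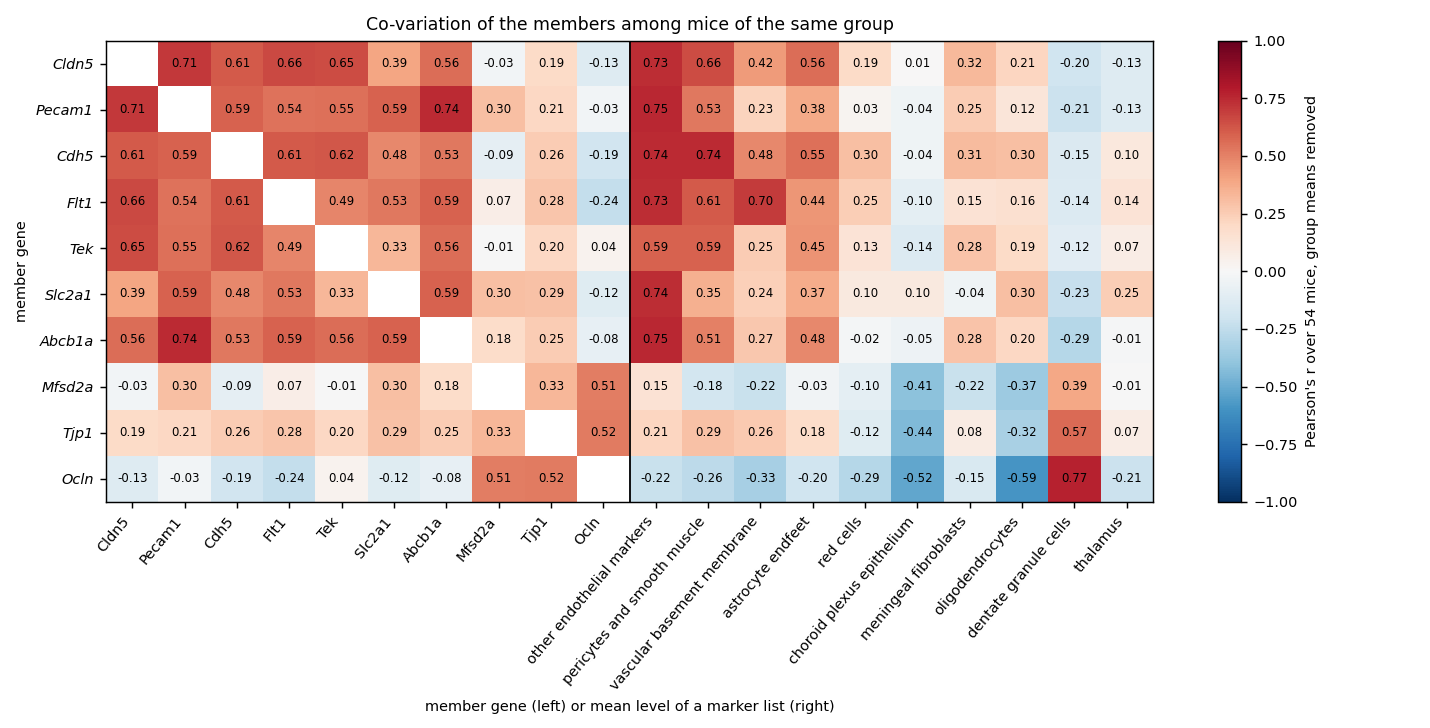
Pearson's r over 54 mice, with group means removed, between the 10 genes (left block) and between each gene and the mean level of 10 marker lists (right block), from blue for negative to red for positive values. Cldn5, Pecam1, Cdh5, Flt1, Tek, Slc2a1 and Abcb1a form a red block with the endothelial list, and Ocln is reddest with the granule cell list at 0.77.

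The members were also set against 10 marker lists that held none of them, in a family of 100 relations. With the 23 other endothelial markers, the 7 genes gave r from 0.588 for Tek to 0.754 for Pecam1, all with a permutation p of 1e-05. The same 7 genes also passed by r with the pericyte and smooth muscle list, from 0.354 for Slc2a1 to 0.744 for Cdh5, and with the astrocyte endfoot list, from 0.368 for Slc2a1 to 0.557 for Cldn5. By rho, Slc2a1 with the pericyte list did not pass (0.315, adjusted p = 0.0767). For Tek and Cdh5 r was about the same with pericytes (0.591 and 0.744) as with the endothelial list (0.588 and 0.743). With the basement membrane list 3 passed, Cldn5, Cdh5 and Flt1, and with the red cell, meningeal fibroblast and thalamus lists none of the 10 did. With the endothelial list Cldn5 gave r = 0.735 and rho = 0.727 (adjusted p = 7.1e-05 and 8.3e-05), and 0.711 without 2 mice. Ocln, Tjp1 and Mfsd2a gave -0.22, 0.21 and 0.15 with that list and did not pass. With the 6 dentate granule cell genes they gave 0.767, 0.567 and 0.385, and all 3 passed. For Ocln rho was 0.688 (permutation p = 1e-05, adjusted p = 8.3e-05) and r was 0.707 without 2 mice. Against the oligodendrocyte list Ocln gave r = -0.589 (rho = -0.55, permutation p = 2e-05 and 8e-05). Ocln, Tjp1 and Mfsd2a were also lower in mice with more choroid plexus signal, at -0.52, -0.44 and -0.41, and all 3 passed. All values of a mouse come from the same library (2 summed libraries for EE control 9), so they share depth and the makeup of the punch. What the lists and genes share was not tested further.

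**Figure D4:**
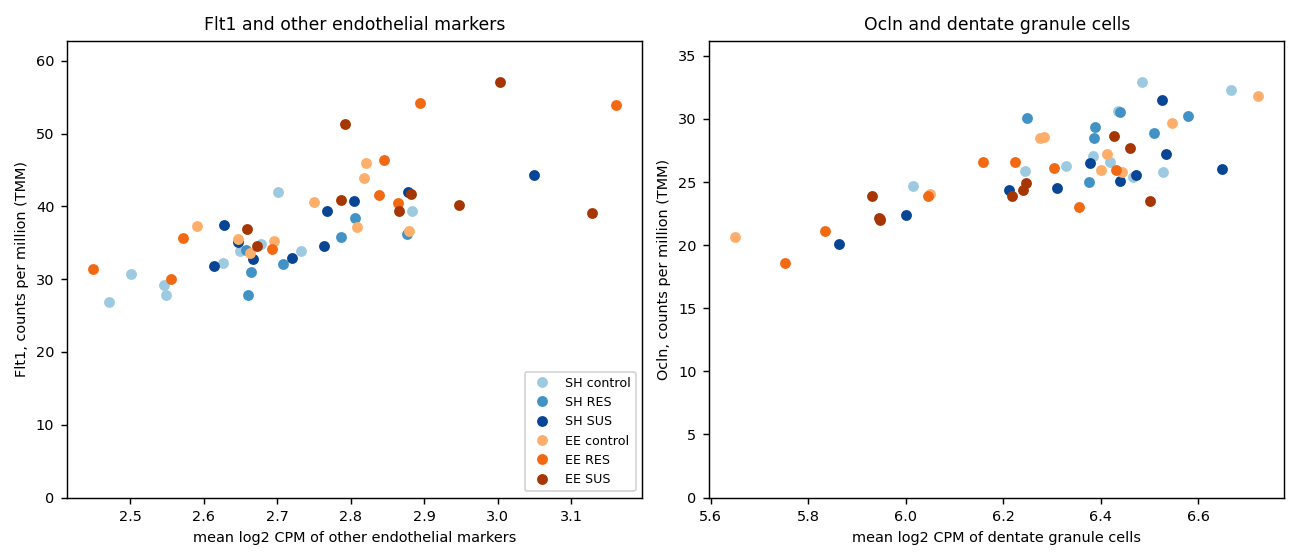
Flt1 in CPM (left, vertical axis) against the mean log2 CPM of 23 other endothelial markers, and Ocln in CPM (right) against the mean log2 CPM of 6 dentate granule cell genes, with 1 point per mouse and the 6 groups in color. Flt1 is higher in mice with a higher endothelial level, and Ocln in mice with a higher granule cell level.

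By the same measure, the 5 genes nearest to Cldn5 among 18273 other genes were Cd93 (r = 0.758), Nos3 (0.734), Tie1 (0.729), Fgd5 (0.707) and Cavin1 (0.702). Cd93, Tie1 and Nos3, the endothelial nitric oxide synthase, are known from endothelium, and Cavin1 coats caveolae. Nearest to the mean of the 10 members were Ahnak (0.779), Cd93 (0.768), Ptprb (0.751), Cavin1 (0.749) and Acvrl1 (0.731). These values describe likeness over 54 mice and carry no test.

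The wider lists of vessel genes gave few calls. For defeated minus unstressed mice, called genes were 0 of 15 further junction genes, 0 of 20 endothelial transporters, 0 of 24 receptor and signaling genes, 0 of 20 genes of the Wnt and Norrin barrier program, 0 of 23 other endothelial markers, 0 of 13 caveola and leukocyte adhesion genes, 0 of 17 pericyte and smooth muscle genes and 0 of 12 basement membrane genes. At an unadjusted p below 0.05 there were 1, 0, 3, 1, 5, 4, 3 and 0, while 4.81% of all genes had such a p. The other endothelial markers had the highest median of these 8 lists at 0.09, with 17 of 23 above 0. Their 3 smallest p values belonged to Ctla2a at 0.44 (adjusted p 0.241), Erg, the ETS factor, at 0.23 (0.684) and Vwf, von Willebrand factor, at 0.43 (0.823).

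Other genes with the smallest p in this comparison were Adgrl4 at 0.19 (adjusted p 0.419), Vegfa at 0.17 (0.828) and Adgrf5 at 0.12 (0.987) among receptors and signaling, and Abcc9 at 0.20 (0.419), Rgs5 at 0.12 (0.987) and Kcnj8 at 0.14 (0.987) among pericyte genes. Of leukocyte adhesion genes Ackr1 at 0.33, Ch25h at 0.89 and Lcn2 at 1.43, and of junction genes Cdh2 at 0.04, Cldn12 at 0.04 and Lsr at 0.12 led. Transporters were led by Slc39a8 at 0.12, Slc16a1 at 0.06 and Slc38a5 at 0.17, the Wnt and Norrin list by Lef1 at 0.46 and Apcdd1 at -0.09, and the basement membrane list by Lama4 at 0.08, Lamc1 at -0.03 and Lama5 at 0.07. None of these passed. Lef1 is also a thalamic gene, and on the thalamus list Prkcd stood at 0.76 and Rora at 0.30 with 4 of 6 genes at an unadjusted p below 0.05 and 0 called.

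Lists of other cells were read in the same defeat comparison, and apart from the red cell genes none of their genes was called. Astrocyte endfoot genes were led by Mlc1 at -0.08, Gja1 at -0.08 and Gjb6 at -0.07, and 2 of 8 had an unadjusted p below 0.05. Choroid plexus genes were led by Clic6 at -1.37, Sostdc1 at -0.41 and Ttr at -2.08, with 3 of 11 such genes. The mean log2 CPM of that list had a median of 0.22 in unstressed mice (-0.32 to 4.57) and 0.09 in defeated mice (-0.4 to 3.79). The part of its few highest mice in these fold changes was not tested. Dentate granule cell genes were led by Tdo2 at -0.12, Prox1 at -0.10 and Dsp at -0.11, and oligodendrocyte genes by Cnp at -0.04 and Mog at -0.03, with 0 of 6 in both. Microglia genes were led by P2ry12 at -0.10, Siglech at 0.08 and Tmem119 at -0.05, with 1 of 6, and meningeal fibroblast genes by Ogn at -0.13, Slc6a13 at -0.09 and Igf2 at -0.10, with 0 of 10.

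**Figure D5:**
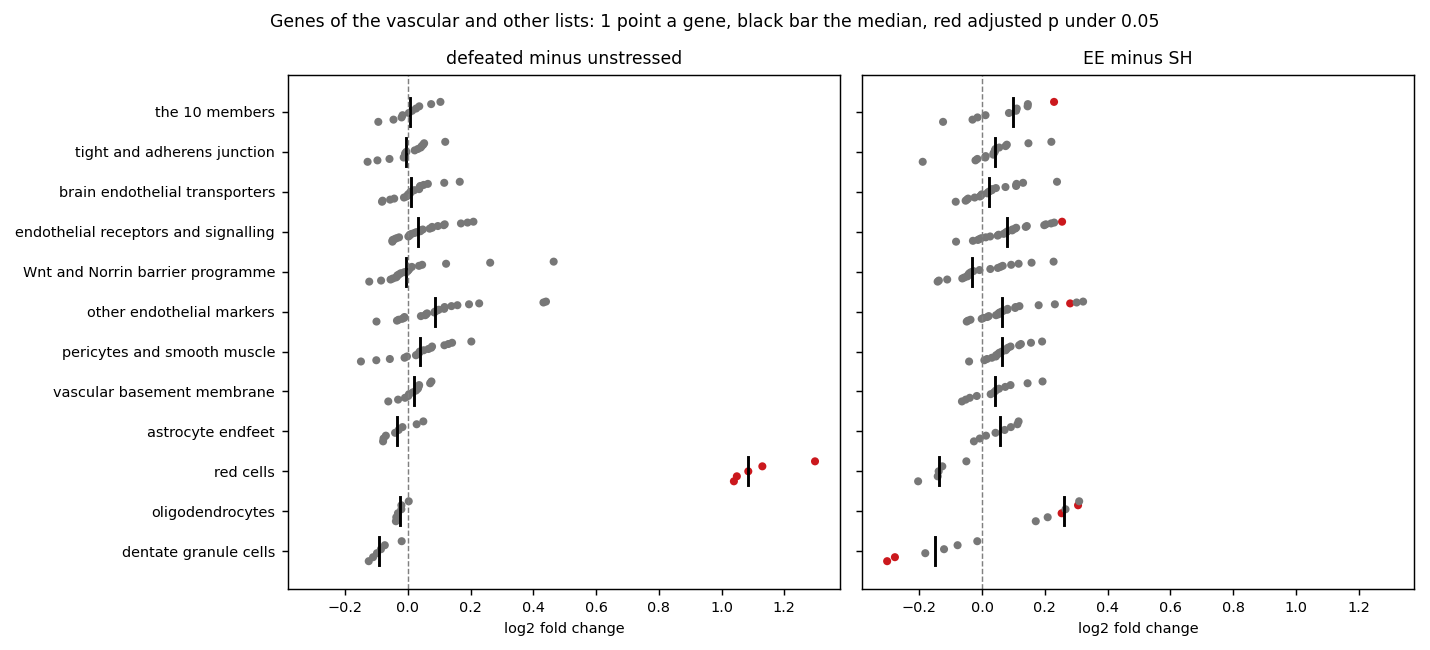
Log2 fold change (horizontal axes) of each gene of the members and 11 further lists (vertical axis) for defeated minus unstressed (left) and EE minus SH mice (right), with 1 point per gene, the list median as a black bar and an adjusted p under 0.05 in red. On the left only the 5 red cell genes are red, and on the right Flt1, Adgrl4 and Ly6a are red among vessel genes, with 2 oligodendrocyte genes above 0 and 2 granule cell genes below.

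For EE minus SH, the receptor and signaling list had 1 of 24 genes called, Adgrl4, a G protein-coupled receptor of endothelium, at 0.25 ± 0.05 (adjusted p 0.00277), and the other endothelial markers 1 of 23, Ly6a at 0.28 ± 0.08 (adjusted p 0.0406). Both genes were picked for naming after their values were seen. Kdr, the main signaling receptor for VEGF, stood at 0.07 with adjusted p 0.445, Vegfa at 0.10 (0.339), Flt4 at 0.22 (0.206) and Nrp1 at 0.01 (0.880). The junction, transporter, Wnt and Norrin, caveola, pericyte and basement membrane lists had 0 called. At an unadjusted p below 0.05 there were 8 of 24 receptor and signaling genes, 7 of 23 other endothelial markers, 6 of 15 junction genes, 3 of 20 transporters, 6 of 20 Wnt and Norrin genes, 5 of 13 caveola and leukocyte adhesion genes, 3 of 17 pericyte genes and 2 of 12 basement membrane genes. Of all genes 17.6% had such a p and 2.42% were called. Medians were 0.08 for receptors and signaling with 19 of 24 above 0, 0.06 for the other endothelial markers with 19 of 23 above 0, 0.06 for pericytes with 16 of 17 above 0, and -0.03 for the Wnt and Norrin list with 8 of 20 above 0. Astrocyte endfoot genes had 0 of 8 called and a median of 0.06, and meningeal fibroblast genes 1 of 10, Igf2 at 0.31.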

How the data were processed

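RNA of ventral dentate gyrus punches was measured in 54 mice (55 libraries, TruSeq Stranded total RNA, paired ends). The authors discarded low-quality reads, aligned to GRCm38 (mm10) with STAR and deposited raw counts per Ensembl gene. The paper names featureCounts, while the tables are laid out as STAR writes them, and their reverse-strand column was used here. The submitters' notes also name Picard. Of all read pairs, 13.9% to 19.9% were unmapped, 8.70% to 12.1% multimapping, 19.9% to 28.8% in no gene and 0.836% to 1.12% ambiguous, and these stayed out of library sizes and tests. Of 45318 identifiers, 44671 matched GENCODE M21.

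Groups came from the labels. The 2 libraries of EE control 9 were summed, since the second matched the first (r = 0.9991) more closely than any other EE control mouse (at most 0.9981). Counts were normalized by TMM in edgeR 4.0.16 (R 4.3.3), filtered with filterByExpr to 18283 genes and fitted with glmQLFit over 6 group means. Calls are at a Benjamini-Hochberg adjusted p below 0.05 over all genes in each of 12 comparisons. EE minus SH within RES mice and within SUS mice was added to these and called the same way. These added comparisons had edgeR alone and no alternative fits. limma 3.58.1 (voom) and DESeq2 1.42.0 were alternatives, besides other filters, covariates and mice left out. Scripts were tested on simulated data. Log2 CPM used a prior count of 2. SciPy 1.17.1 and statsmodels 0.14.6 served the correlations. The labels do not say whether the mouse numbers mark litters or batches. Same-numbered mice of different groups gave a median r of 0.026 over 126 pairs (-0.258 to 0.44). Mice of other numbers and groups gave -0.004 over 1086 pairs (-0.355 to 0.492), and the difference was not tested. p-values measure the spread between single mice. Intervals of fold changes are from the edgeR fit.

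The members and lists were chosen with earlier results of these data known. Named were all 10 members, the 3 genes of smallest p of each list for defeated minus unstressed mice, and the 5 genes nearest to Cldn5 and to the members' mean. Of the list genes, 2 are not reported here. The 16 further lists held 1 untested gene each for junctions (Cldn3), leukocyte adhesion (Selp) and choroid plexus (Slc4a5).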

Additional observations from a re-analysis of the deposited data

Results flagged for a closer look

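Values were checked for a single mouse far from its group, over 60 sets of 1 gene in 1 group. A set was picked out where the gap from the outermost mouse to its neighbor exceeded Dixon's 95% limit for the group size, which chance gives in about 1 of 20 sets. There were 3 such values, and all lay in SH RES, the smallest group. Cdh5 was 6.45 CPM in SH RES mouse 1, where the next was 5.39 and the median 4.99. Abcb1a was 34.4 CPM in the same mouse, with the next at 31.0 and the median at 30.3. Ocln was 24.99 CPM in SH RES mouse 6, the lowest of the group, with the next at 28.5 and the median at 29.4. No difference between groups of mice in a comparison's effect passed a test for any member.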

How the results depend on the processing

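The count of members called stayed at 0 in the other 11 comparisons under every alternative run, including each of 54 mice left out in turn. For EE minus SH the count was 1 (Flt1). It became 2 with DESeq2 (Pecam1 added, adjusted p 0.0473) and 2 with the red cell level as a covariate (Ocln added at -0.14, adjusted p 0.0452). It became 0 with the other endothelial markers as a covariate and 0 with the granule cell, oligodendrocyte and thalamus covariates, the latter chosen after seeing the data. With 1 mouse left out it ran from 1 to 2. Flt1 passed in all 54 of these fits (0.21 to 0.24, adjusted p 0.0102 to 0.0359), Ocln passed without EE control 8 (adjusted p 0.0467) or SH SUS 3 (0.0394), and Pecam1 without EE RES 2 (0.0464). With the mouse number as a replicate block, 1 member was called for EE minus SH (Flt1, 0.24, adjusted p 0.0173), and the replicate block changed no other count of members. Without the 6 mice highest in choroid plexus, also chosen after seeing the data, Flt1 stood at 0.22 (adjusted p 0.0371). Of the 120 values of a member in a comparison, 105 had intervals that span 0, and 46 of these changed sign under at least 1 alternative and 39 with at least 1 mouse left out, while the other 15 never did. For Cldn5, EE RES minus EE control became -0.0001 with other endothelial markers, -0.0189 with red cells as a covariate and -0.0221 without the 6 choroid plexus mice (0.03 as reported, and -0.0168 to 0.0715 with 1 mouse left out). EE control minus SH control became 0.0137 without those 6 mice (-0.0703 to 0.006 with 1 left out), defeated minus unstressed 0.0041 with the granule cell, oligodendrocyte and thalamus covariates (-0.0333 to 0.0048) and -0.1066 with the other endothelial markers, and the SUS-minus-RES difference between housings 0.0265 with the granule cell, oligodendrocyte and thalamus covariates (-0.0595 to 0.0281). The cause was not tested. Over all genes, EE minus SH gave 442 calls, but 680 with DESeq2, 581 with the replicate block and 242 without the low-count filter. It gave 179 with the other endothelial markers and 116 with the granule cell, oligodendrocyte and thalamus levels as covariates. Defeated minus unstressed gave 8, but 13 with DESeq2, 5 with either of those 2 sets of covariates and 0 with the red cell level as a covariate. The lowest count, 80 read pairs for Cdh5, limits its precision most. The fit of each housing alone gives no comparison between housings.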
